A study of Mus musculus with 12 samples.

Results

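The mitochondrial ribosomal protein genes were taken as every row of the deposited gene tables whose symbol begins with Mrpl or Mrps followed by a number, with pseudogene rows left out. The rule found 77 genes of 24279, of which 48 carry a large subunit symbol (Mrpl) and 29 a small subunit symbol (Mrps). All 77 passed the filter on low counts and were tested among 15186 genes.

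Polyadenylated RNA was sequenced from 12 libraries of primary mouse embryonic fibroblasts, which are connective tissue cells put into culture from E12.5 embryos. The cells were wild type or Rsg1L3P/L3P, called mutant here, and came from F3 mice. Mice on moderate folic acid received 2 ppm in the diet and their cells 225 ng/mL in the medium (DMEM), while fortified folic acid meant 10 ppm in the diet and 3600 ng/mL in the medium. Each of the 4 groups (moderate wild type, moderate mutant, fortified wild type, fortified mutant) held 3 libraries. The effect of diet cannot be told apart from that of medium. Nothing in the labels ties the libraries of a group to separate embryos, and p-values therefore measure only the spread between these libraries, which may be technical. Rsg1 encodes a small GTPase-like protein that takes part in building primary cilia.

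The mitochondrial ribosome translates the few messages of the mitochondrial genome, all of which code for subunits of the respiratory chain and the ATP synthase. Its proteins are all encoded in the nucleus, made in the cytosol and imported, and its large and small subunits are assembled on RNAs made inside the organelle. Many of its proteins descend from bacterial ribosomal proteins, and the rest were added in the course of mitochondrial evolution. By what is known of the structure, 46 of the 77 genes encode homologues of bacterial ribosomal proteins and 30 encode mitochondrion-specific proteins. Symbols do not always match position: Mrps30 and Mrps18a encode proteins of the large subunit, which gives 50 large and 26 small subunit proteins. Mrps36 encodes a component of the 2-oxoglutarate dehydrogenase complex rather than a ribosomal protein, and was kept because the rule is by symbol.

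Libraries held 39339190 to 48475963 counts, of which the mitochondrial ribosomal protein genes took 0.214 to 0.36%. Of 10 fibroblast markers 10 were detected, with a summed level of 6256 to 19057 TPM (transcripts scaled to length and to a common total), and 0 of 3 hepatocyte markers passed the filter. All 17 skeletal muscle markers were also detected, with sums of 891 to 6429 TPM. Along the first principal component 5 libraries lay far from the other 7: moderate wild type 1 and fortified mutant 2 and 3 at the high end, and moderate wild type 2 and 3 at the low end. The 3 at the high end held the 3 highest muscle sums (5891, 6429 and 4624 TPM). They also held the 3 highest sums of 13 neuron markers (525, 393 and 296 TPM), all of which passed the filter. Y-linked transcripts were present in 3 of 6 wild type libraries and 0 of 6 mutant libraries. Rsg1 itself lay between 0.489 and 1.12 CPM (counts scaled to a common library total) in all 12 libraries, and its level does not check a label since a changed protein can be made from an unchanged amount of RNA.

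Mean levels of the mitochondrial ribosomal protein genes ran from 8.6 to 380.4 TPM, a unit that allows genes to be compared per length. The highest large subunit genes were Mrpl52 with a mean of 380.4 TPM, Mrpl20 with 290.5 TPM and Mrpl42 with 207.3 TPM. The lowest were Mrpl19 with 12.1 TPM, Mrpl17 with 13.4 TPM and Mrpl35 with 17.4 TPM. Of the small subunit genes, Mrps21 (281.4 TPM), Mrps6 (150.5 TPM) and Mrps18c (122.2 TPM) were the highest. Mrps25 (8.6 TPM), Mrps14 (24.9 TPM) and Mrps31 (32.6 TPM) were the lowest. The genes are spread over 17 chromosomes, with 10 on chromosome 11, the most on any. By the GENCODE annotation of GRCm38, 23 of the 77 share exon sequence with another protein-coding gene, 20 of them on the opposite strand, and the counting is not stated to use strand.

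**Figure D1:**
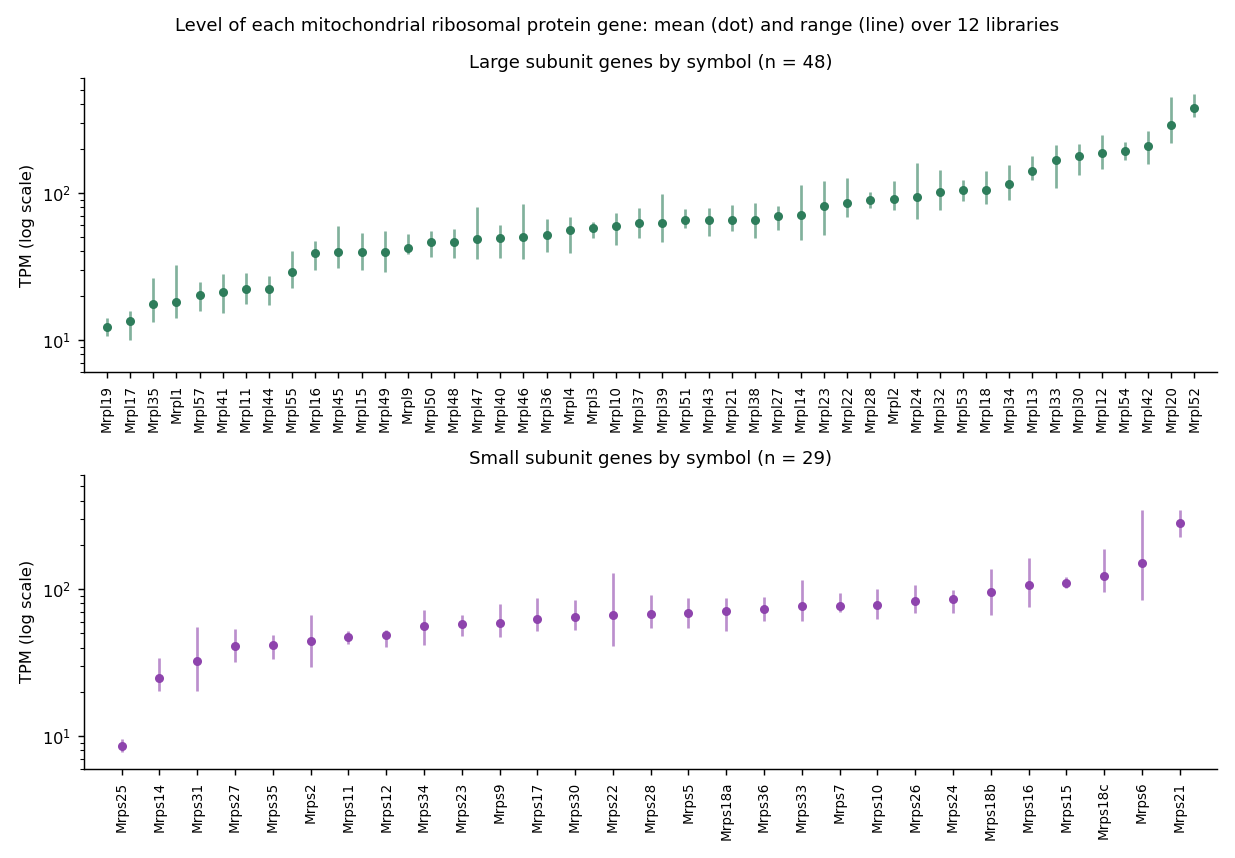
Mean TPM of each gene (dot) with its range over the 12 libraries (line) on a log axis, large subunit symbols above and small subunit symbols below, each ordered by mean. Mrpl52 is highest at 380.4 TPM and Mrps25 lowest at 8.6 TPM, and most genes lie between these with ranges that are narrow beside the differences between genes.

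The steadiest member over all libraries was Mrps12, which encodes a homologue of the bacterial decoding-site protein S12, with an SD of log2 CPM of 0.163. Mrpl28 (0.166) and Mrpl37 (0.169) followed. The most variable was Mrps6, with an SD of 0.596, followed by Mrps16 (0.502) and Mrpl14 (0.496). Mrps6 reached 122.8 CPM in moderate wild type library 3 and lay between 24.1 and 53.2 CPM in the other 11 libraries. Its exons overlap those of Slc5a3 on the same strand, so its counts are less certain than those of most members.

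Moderate wild type library 3 stood above the other libraries over most of the set. Of the 77 genes 51 were highest in it, and 71 lay above their own mean. The lowest values were commonest in moderate mutant library 1, where 30 genes had their minimum. As a summary of each library, the deviation of log2 CPM from the gene's mean over 12 libraries was averaged over the 77 genes. This score was -0.16, -0.014 and 0.44 in the moderate wild type libraries and -0.32, -0.24 and -0.073 in the moderate mutant libraries. It was -0.21, 0.16 and 0.067 in the fortified wild type libraries and 0.16, 0.15 and 0.039 in the fortified mutant libraries. The moderate mutant libraries did not overlap the fortified mutant libraries, whereas each of the wild type groups spanned 0.

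**Figure D2:**
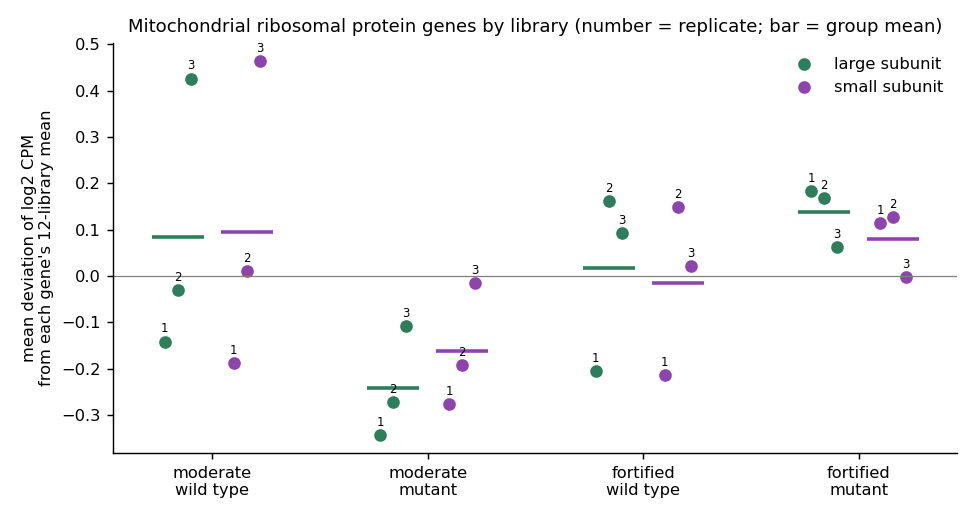
Score of each library for large (green) and small (purple) subunit genes, the mean deviation of log2 CPM from each gene's mean over 12 libraries, by group, with the replicate number at each point and a bar at the group mean. Moderate wild type library 3 is highest for both subunits (0.43 and 0.46), and all 3 moderate mutant libraries lie below 0 for both.

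The large and small subunit scores followed each other closely, and their difference was small. Large minus small was -0.068, -0.078 and -0.093 in moderate mutant cells and 0.071, 0.04 and 0.066 in fortified mutant cells, with no overlap. In wild type cells it was 0.048, -0.04 and -0.038 at moderate and 0.0094, 0.012 and 0.071 at fortified folic acid, where the groups overlapped. On the TPM scale the summed level of large over small subunit genes was 1.70, 1.67 and 1.68 in moderate mutant cells against 1.93, 1.87 and 1.96 in fortified mutant cells. In wild type cells the ratio was 1.85, 1.72 and 1.71 at moderate and 1.82, 1.84 and 1.92 at fortified folic acid. Summed over the 48 large subunit genes, levels were 3697 ± 156 TPM in moderate mutant and 4078 ± 113 TPM in fortified mutant cells (SD, n = 3). The 29 small subunit genes summed to 2199 ± 99.9 TPM and 2127 ± 31.9 TPM in the same groups (SD, n = 3). Only the large subunit sums were therefore apart. The sums weight abundant genes most and do not show a change shared across a subunit. Of the large subunit genes, Mrpl30 rose from 132.4, 137.4 and 140.2 TPM in moderate to 209.9, 197.2 and 210.4 TPM in fortified mutant libraries. Mrpl37 fell from 68.3, 74.2 and 71.8 to 49.5, 49.7 and 53.0 TPM. Of the small subunit genes, Mrps16 rose from 75.3, 75.9 and 80.8 to 164.3, 107 and 107.7 TPM. Mrps6 fell from 152.1, 191.8 and 183.5 to 97.5, 135 and 96.0 TPM. Wild type sums were 4278 ± 470 and 3851 ± 287 TPM for the large, and 2439 ± 350 and 2068 ± 130 TPM for the small subunit genes, at moderate and fortified folic acid (SD, n = 3). In bulk RNA, a change in the share of a cell type and a change in RNA per cell cannot be told apart.

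At fortified against moderate folic acid in mutant cells, 11 of the 77 genes rose and 0 fell at an adjusted p under 0.05, which is 14.3% of the set against 6.93% of all tested genes (4.19% higher and 2.74% lower). Of these 11 genes 9 carry large subunit symbols: Mrpl33, Mrpl14, Mrpl41, Mrpl30, Mrpl40, Mrpl42, Mrpl53, Mrpl21 and Mrpl4. The other two were Mrps16 and Mrps36, of which only Mrps16 encodes a ribosomal protein. The median log2 fold change of the 77 genes was 0.35, with 61 positive and 16 negative, against a median of 0.04 for all tested genes, of which 53.0% were positive. At an unadjusted p under 0.05, 35 were higher and 1 lower, where 13.5% and 12.2% of all genes were. Large subunit genes had a median of 0.36 and small subunit genes one of 0.23. Homologues of bacterial proteins had a median of 0.38, with 6 of 46 passing, and mitochondrion-specific proteins one of 0.15, with 4 of 30 passing. Without overlap between the groups, 38 genes were higher and 3 lower, where 19.6% and 18.5% of all tested genes were.

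Mrpl33, a homologue of the small bacterial protein L33, changed most. It was at 14.9, 14.4 and 16.01 CPM in moderate mutant libraries and at 36.3, 29.4 and 31.0 CPM in fortified mutant libraries. Every fortified library was above every moderate one, a 2.13-fold difference (log2 fold change 1.09 ± 0.18 SE, adjusted p = 0.0119). Its wild type levels, 21.4, 24.96 and 30.3 CPM at moderate and 26.3, 36.1 and 34.7 CPM at fortified folic acid, overlapped each other, and the moderate mutant libraries were below all of them. Mrpl40, a mitochondrion-specific protein, went from 13.9, 15.4 and 15.96 CPM to 28.6, 27.4 and 28.9 CPM. Its groups were far apart beside their spread (log2 fold change 0.91 ± 0.15 SE, adjusted p = 0.0119). Mrpl41, also mitochondrion-specific, was at 16.4, 15.2 and 18.2 CPM and then at 28.2, 34.4 and 34.1 CPM (0.96 ± 0.19 SE, adjusted p = 0.0216).

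Mrps16, a homologue of bacterial S16 in the small subunit, was at 13.0, 13.4 and 15.2 CPM in moderate and 37.4, 25.5 and 23.1 CPM in fortified mutant libraries (1.04 ± 0.23 SE, adjusted p = 0.0299). Fortified mutant library 1 was the highest of the 3, as it was for Mrpl14, at 27.5 against 15.8 and 16.5 CPM in the others and 9.68, 11.1 and 9.68 CPM in moderate mutant libraries (0.97 ± 0.27 SE, adjusted p = 0.0491). Mrpl14 encodes the homologue of L14, which lies where the subunits join, and its exons overlap those of Tmem63b on the opposite strand. Mrpl30 was at 30.2, 31.9 and 34.7 CPM in moderate and at 62.8, 61.5 and 59.4 CPM in fortified mutant libraries (0.93 ± 0.21 SE, adjusted p = 0.0299). The fortified libraries lay within a narrow band well above the moderate ones. Mrpl42 had a log2 fold change of 0.84, Mrpl53 one of 0.69, Mrps36 and Mrpl21 of 0.62 and Mrpl4 of 0.58, with adjusted p from 0.0359 to 0.0486. Mrpl53 and Mrpl4 fell outside the rule for named genes and were named after their values were seen, to complete the 11. Mrpl21 and Mrpl53 share exon sequence with another protein-coding gene (Ighmbp2 and Gm42688).

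**Figure D3:**
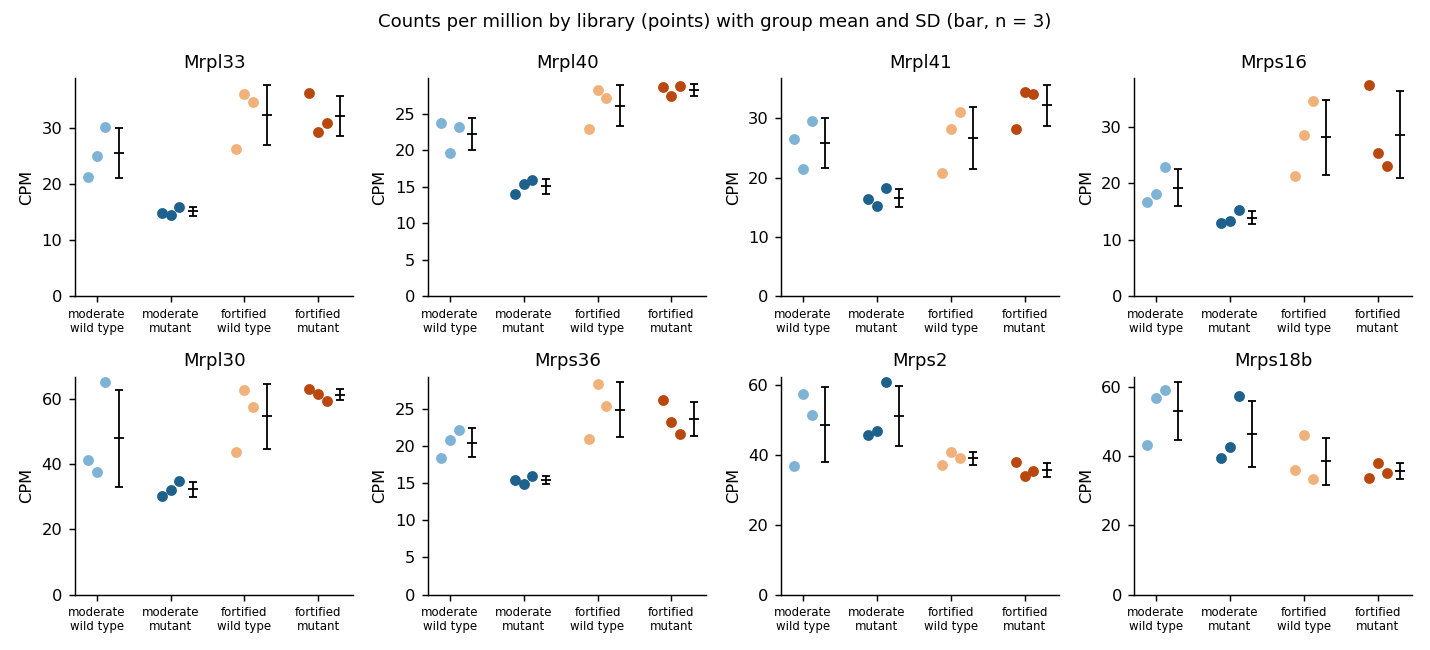
CPM of 8 genes in each library (points), with the group mean and SD (bar, n = 3), on axes that start at 0. In the first 6 genes the moderate mutant libraries lie below all fortified mutant libraries, and in Mrps2 and Mrps18b above them, as with 33.8 to 37.9 CPM against 45.8 to 61.0 CPM for Mrps2.

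The 250 bases before the annotated start of 4 of these genes are shown because the genes bear on the comparison just described: Mrpl33, Mrpl40 and Mrpl41 have the 3 smallest p-values of the 11, and Mrpl53 is among the 11 with the most motif matches in this window. Sequences are from RefSeq on GRCm38.p6, 5′ to 3′ on the gene's strand, and capitals mark matches, on either strand, to the motifs named below. The windows are chr5:31613701-31613950 (plus strand) for Mrpl33, chr16:18876638-18876887 (minus strand) for Mrpl40, chr2:24975099-24975348 (minus strand) for Mrpl41 and chr6:83108858-83109107 (plus strand) for Mrpl53. The window of Mrps2, chr2:28467816-28468065 (plus strand), is given for contrast, since that gene was lower at fortified folic acid in the average of both genotypes. Unlike the other 4, this window lies inside the annotated span of its gene (chr2:28465951-28471177), before a start within it.
Mrpl33: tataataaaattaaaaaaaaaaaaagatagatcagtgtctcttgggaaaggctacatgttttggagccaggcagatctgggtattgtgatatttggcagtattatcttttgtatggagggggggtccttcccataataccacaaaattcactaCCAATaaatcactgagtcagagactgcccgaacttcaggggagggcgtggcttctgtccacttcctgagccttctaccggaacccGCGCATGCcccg
Mrpl40: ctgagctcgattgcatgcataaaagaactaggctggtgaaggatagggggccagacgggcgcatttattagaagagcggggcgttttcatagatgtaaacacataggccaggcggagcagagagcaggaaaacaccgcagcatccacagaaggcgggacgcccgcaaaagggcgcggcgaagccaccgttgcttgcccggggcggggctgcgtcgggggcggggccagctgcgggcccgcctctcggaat
Mrpl41: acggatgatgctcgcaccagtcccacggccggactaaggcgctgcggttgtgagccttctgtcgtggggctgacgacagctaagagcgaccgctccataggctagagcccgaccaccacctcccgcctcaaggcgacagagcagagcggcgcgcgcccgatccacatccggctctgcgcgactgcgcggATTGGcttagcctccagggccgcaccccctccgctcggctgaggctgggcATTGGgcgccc
Mrpl53: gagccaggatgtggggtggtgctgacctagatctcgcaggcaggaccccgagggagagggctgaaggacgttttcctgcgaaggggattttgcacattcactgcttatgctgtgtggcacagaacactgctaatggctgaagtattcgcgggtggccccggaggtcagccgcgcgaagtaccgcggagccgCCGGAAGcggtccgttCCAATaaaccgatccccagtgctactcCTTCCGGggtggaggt
Mrps2: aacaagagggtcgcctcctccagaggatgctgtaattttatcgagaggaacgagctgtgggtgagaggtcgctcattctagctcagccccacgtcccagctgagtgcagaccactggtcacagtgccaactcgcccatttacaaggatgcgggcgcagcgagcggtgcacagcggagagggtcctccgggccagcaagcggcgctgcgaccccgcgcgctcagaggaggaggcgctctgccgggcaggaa

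Mrpl33 held a match to CCAAT and one to GCGCATGC, the core of the site of nuclear respiratory factor 1 (NRF1), a factor known to drive many nuclear genes for mitochondrial proteins. The latter began 12 bases before the start. Mrpl41 held 2 matches to CCAAT, 61 and 11 bases before the start, both read on the opposite strand as ATTGG. Mrpl53 held CCGGAAG, a core of ETS factors such as GABP, 59 bases before the start and its reverse CTTCCGG 16 bases before the start, with a CCAAT between them. Mrpl40 and Mrps2 held none of the motifs searched, which says only that these letters are not in these windows.

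Of the 77 genes 68 had a promoter entry. CCGGAAG was in 17 of 68 (25%), against 7.83% of all 27025 promoters of the same length. GCGCATGC was in 8 of 68 (11.8%, against 2.56%), and AAGATGGC, the core of YY1, in 4 of 68 (5.88%, against 1.83%). The E-box CACGTG (7.35%, against 6.86%) and CCAAT (36.8%, against 37.5%) were about as frequent in members as in all genes with an entry, and TATAAA was in 7.35% against 14.3%. Both strands were searched, and overlaps between motifs were allowed. Median GC content was 58.4% in members and 52.4% in all promoters, and the motifs differ in base composition, so these shares are a description. Of the 10 with an entry among the 11 genes that rose, 6 held CCAAT, 2 held CCGGAAG and 1 held GCGCATGC. AAGATGGC, CACGTG and TATAAA were in 0 of these 10.

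The changes in mutant cells went with transcript length. Relative length here is count over TPM, set to 1 at the median tested gene. The mitochondrial ribosomal protein genes are short, with a median of 0.329, and the 11 that rose were shorter still, at 0.196. Over all tested genes, the median log2 fold change in mutant cells was 0.70 for relative lengths up to 0.25, 0.37 from 0.25 to 0.5, 0.10 from 0.5 to 1, -0.064 from 1 to 2 and -0.26 above 2. Members had medians of 0.62, 0.23, 0.025, 0.48 and 0.39 in the same bins, with 21, 33, 17, 4 and 2 genes. Up to a relative length of 1, where 71 of the 77 genes lie, their median in each bin was below that of all genes of the same length. With each library's trend on length removed, 0 of 77 genes passed and the median was -0.046 (36 positive and 41 negative), against 0.030 for all tested genes, of which 0.607% passed. Mrpl41, at a relative length of 0.85, kept a log2 fold change of 0.95 with an adjusted p of 0.0562, while that of Mrpl33 went to 0.41 and that of Mrpl40 to 0.54.

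**Figure D4:**
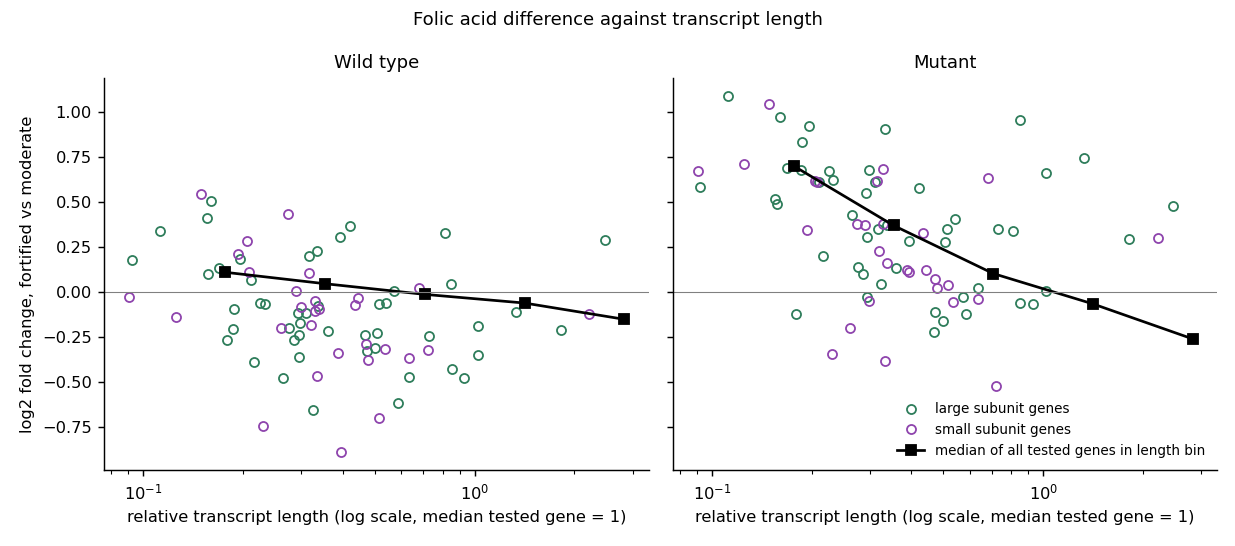
Log2 fold change at fortified against moderate folic acid against relative transcript length (log axis), for large (green) and small (purple) subunit genes, in wild type (left) and mutant (right) cells. Squares are medians of all tested genes in 5 length bins, drawn at bin centres with the outer bins placed by doubling; in mutant cells they fall from 0.70 to -0.26, and in wild type cells from 0.11 to -0.15.

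On log2(TPM + 1), tested by limma, the median of all genes in this contrast was -0.23, and that of the members -0.0044. There 12 members passed, 6 higher and 6 lower, where 18.5% of all genes passed. Of all genes that passed, 306 of 2814 were higher on this scale, against 637 of 1053 by counts. Of these 12, 6 were among the 11 that rose by counts: Mrpl33, Mrpl40, Mrpl41, Mrpl42, Mrps16 and Mrpl30. The count of 11 also rested on the libraries: it was 0 without any 1 of the moderate mutant libraries or without fortified mutant 2, and 3 without fortified mutant 1 or 3. The share of all genes that passed fell as well, to 0%, 0% and 0.195% without moderate mutant 1, 2 and 3, and to 1.33%, 0.254% and 3.1% without fortified mutant 1, 2 and 3. Leaving out a wild type library, which enters through the scaling, the filter and the shared estimate of spread, gave 16, 13 or 20 for those at moderate and 7, 6 or 6 for those at fortified folic acid, in the order of their numbers, where 13.5%, 8.09% and 10.6% and then 3.85%, 3.69% and 3.88% of all genes passed. Without the 3 libraries at the high end of the first principal component, only fortified mutant library 1 is left in its group, so calls from that fit are not given. Skeletal muscle markers, 17 of 17 detected, summed to 3489 to 4530 TPM in moderate mutant and 1591 to 6429 TPM in fortified mutant libraries. Fibroblast markers summed to 11261 to 11955 and 8522 to 10707 TPM. Taken singly, by counts, 8 of the 10 fibroblast markers had a positive log2 fold change in this contrast and 2 a negative one, with a median of 0.33. The part of length, libraries and markers in the result was not tested beyond these values.

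In wild type cells, fortified against moderate folic acid changed none of the 77 genes at an adjusted p under 0.05, with 0.0263% of all tested genes passing by edgeR. At an unadjusted p under 0.05 there were 9, of which 2 were higher and 7 lower, where 9.67% and 9.98% of all genes were. DESeq2 gave 1, Mrpl49 (adjusted p = 0.0483), where 1155 of the 19303 genes it fitted passed (5.98%, with genes lacking an adjusted p kept in the denominator). The median log2 fold change was -0.11, with 24 positive and 53 negative, against -0.037 for all genes, of which 53.2% were negative. Groups did not overlap for 3 higher and 4 lower genes, where 11.0% and 9.67% of all genes did not. Mrpl49 had the smallest p. It was at 34.0, 33.9 and 50.2 CPM at moderate and at 23.0, 26.8 and 27.4 CPM at fortified folic acid, with no overlap (log2 fold change -0.61 ± 0.19 SE, adjusted p = 0.132). Mrps22, a mitochondrion-specific small subunit protein, was at 36.0, 33.7 and 79.2 CPM and then at 23.0, 31.0 and 26.5 CPM (-0.89 ± 0.33 SE, adjusted p = 0.173). In both genes moderate wild type library 3 was the highest. Without this library the median of the 77 genes was 0.057.

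Set beside each other, the 77 genes had similar orders in both genotypes at different levels. Pearson's r between the log2 fold changes in wild type and in mutant cells was 0.67 and Spearman's rho 0.68 over the 77 genes, against 0.50 and 0.49 over all tested genes. These contrasts share no library, but genes are not independent replicates and both contrasts move with length. The value was higher in mutant than in wild type cells for 72 genes. It was positive in both for 23 genes, negative in both for 15, positive in mutant cells only for 38 and positive in wild type cells only for 1.

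**Figure D5:**
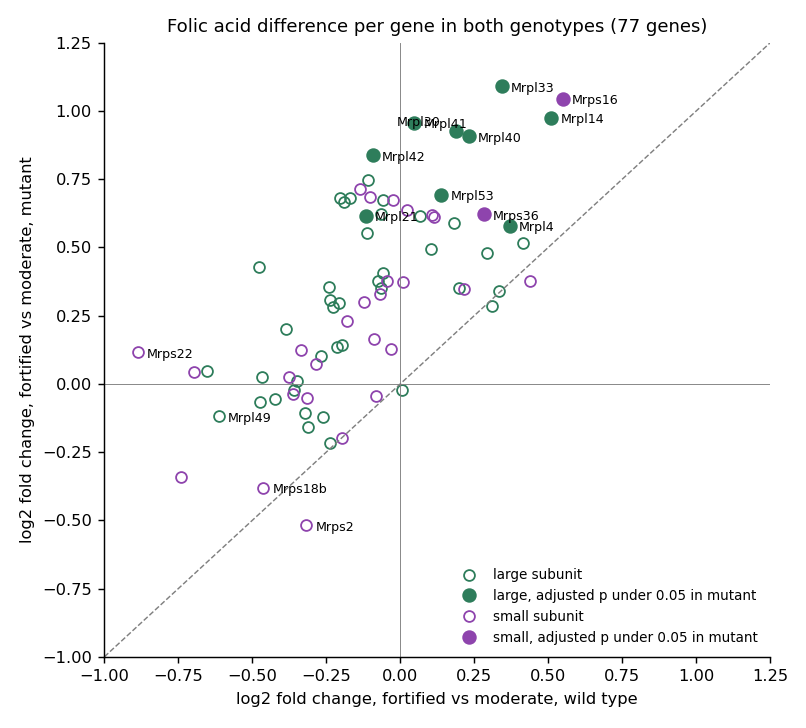
Log2 fold change at fortified against moderate folic acid in wild type (x axis) and mutant cells (y axis) for each of the 77 genes, large subunit in green and small in purple, filled where the adjusted p in mutant cells is under 0.05. Points above the dashed line of equal change number 72, and Mrpl33 (0.34 in wild type, 1.09 in mutant) lies at the top.

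The difference between these changes was itself tested as an interaction, and 0 of 77 genes passed, with 0% of all genes passing. By DESeq2 it was also 0, but 17720 of the 19303 genes it fitted had no adjusted p there and could not pass. Its median was 0.42, with 72 positive and 5 negative, against 53.0% positive over all tested genes. At an unadjusted p under 0.05 there were 15, all positive, where 4.55% of all genes were higher. The smallest p belonged to Mrpl41 (0.91 ± 0.27 SE), Mrpl42 (0.93 ± 0.28 SE), Mrpl40 (0.67 ± 0.21 SE), Mrpl21 (0.73 ± 0.24 SE) and Mrpl18 (0.85 ± 0.28 SE), each with an adjusted p of 0.708. With the trend on length removed the median was 0.20. It was 0.275 without moderate wild type library 3 and 0.559 without moderate wild type library 1, the lowest and highest when single libraries were left out.

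Averaged over both genotypes, fortified folic acid went with 10 higher and 2 lower genes, or 15.6% of the set, which is below the 17.8% of all tested genes that passed (8.90% higher and 8.86% lower). The 10 were Mrps16 (0.80), Mrpl14 (0.74), Mrpl33 (0.72), Mrpl40 (0.57), Mrpl30 (0.56), Mrpl41 (0.50), Mrpl4 (0.47), Mrps36 (0.45), Mrpl53 (0.42) and Mrpl17 (0.39), as log2 fold changes. The 2 lower genes were Mrps2 and Mrps18b, which both encode small subunit proteins. Mrps2, a homologue of bacterial S2, was at 36.7, 57.6 and 51.5 CPM in moderate wild type and 45.8, 46.7 and 61.0 CPM in moderate mutant libraries. It was at 37.1, 40.7 and 39.1 CPM in fortified wild type and 37.9, 33.8 and 35.4 CPM in fortified mutant libraries (-0.42 ± 0.13 SE, adjusted p = 0.0403). Moderate wild type library 1 lay within the fortified range, and the other 5 moderate libraries lay above it.

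Mrps18b was at 43.3, 56.7 and 59.0 CPM in moderate wild type and 39.5, 42.5 and 57.4 CPM in moderate mutant libraries. At fortified folic acid it was at 36.0, 46.0 and 33.3 CPM in wild type and 33.7, 38.1 and 35.3 CPM in mutant libraries (-0.42 ± 0.13 SE, adjusted p = 0.0474), with some overlap between moderate and fortified libraries. Mrps12 was the member whose 6 fortified libraries all lay above its 6 moderate ones, at 13.5 to 15.97 against 11.2 to 12.6 CPM, though it did not pass (0.28 ± 0.11 SE, adjusted p = 0.093). Of all tested genes 2.77% were higher without overlap in this way. The median over the 77 genes was 0.14 against 0.00036 for all genes, with 48 positive and 29 negative (50.0% of all genes were positive). It was 0.069 without fortified wild type library 2 and 0.19 without moderate wild type library 3. With the trend on length removed, 14.2% of all genes passed and 10 of the members, of which 2 were higher (Mrpl17 and Mrpl41) and 8 lower (Mrpl34, Mrpl37, Mrpl38, Mrpl46, Mrpl49, Mrps18a, Mrps18b and Mrps2). Of these, 4 were among the 12, and Mrps2 and Mrps18b were lower in both. On log2(TPM + 1) 23 passed, 5 higher and 18 lower, where 24.6% of all genes passed, 587 higher of 3741, with a median of -0.084 for the members against -0.15 for all genes. By counts the split was 10 higher and 2 lower.

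Mutant against wild type cells at moderate folic acid gave 0 genes past the threshold, as for all genes (0%). At an unadjusted p under 0.05 there were 17, all lower in mutant cells, against 5.14% of all genes that were lower. DESeq2 gave 2, Mrpl33 (adjusted p = 0.0368) and Mrpl40 (adjusted p = 0.042), where 0.207% of the genes it fitted passed. The median was -0.34, with 3 positive and 74 negative, where 56.4% of all genes were negative and their median was -0.054. In all, 19 genes lay lower without overlap, where 6.68% of all genes did. The smallest p-values belonged to Mrpl33 (-0.75 ± 0.18 SE), Mrpl40 (-0.56 ± 0.15 SE), Mrpl42 (-0.68 ± 0.20 SE), Mrpl41 (-0.64 ± 0.19 SE) and Mrpl18 (-0.63 ± 0.20 SE), each with an adjusted p of 0.588. When moderate wild type library 3 was left out the median was -0.13, and with a covariate for sex-linked transcripts it was also -0.13. Short genes of any kind were lower as well: the median of all genes up to a relative length of 0.25 was -0.42, and that of the 21 members of this length -0.44.

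At fortified folic acid, mutant and wild type cells differed in 0 of the 77 genes (0% of all genes passed). At an unadjusted p under 0.05 there were also 0, against 3.29% of all genes. DESeq2 gave 0 as well. The median was 0.10, with 60 positive and 17 negative (51.0% of all genes were positive), and 6 genes were higher in mutant cells without overlap, against 4.66% of all genes. This median was 0.017 without fortified wild type library 1, with 42 positive and 35 negative, and 0.18 without fortified wild type library 2. Mrpl11 had the smallest p (0.40, adjusted p = 0.939), followed by Mrpl21, Mrpl48, Mrpl41 and Mrpl50. Averaged over folic acid, 0 genes passed (0% of all), 4 were positive and 73 negative (55.3% of all genes were negative), and the median was -0.11. At an unadjusted p under 0.05 there was 1, Mrpl33 (-0.38 ± 0.13 SE, adjusted p = 0.986), against 3.09% of all genes that were lower. DESeq2 gave 0. The median over folic acid levels was -0.0049 without moderate wild type library 3 and -0.17 without moderate wild type library 1. With the covariate for sex-linked transcripts this median was 0.11, a change of sign.

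Members chosen for their known roles show how unevenly the set behaved. Mrpl12, whose protein forms the stalk that binds translation factors, was at 55.1, 61.1 and 80.9 CPM in moderate mutant and 76.8, 85.1 and 81.9 CPM in fortified mutant libraries (0.31, adjusted p = 0.415), with overlap. Mrpl3 (0.35, adjusted p = 0.192) and Mrps34 (0.38, adjusted p = 0.264) were positive in the same contrast. Mrpl44 (-0.11, adjusted p = 0.755), Mrps30 (-0.052, adjusted p = 0.89) and Mrps18a (-0.20, adjusted p = 0.597) were negative. None of these 6 passed in any of the 7 contrasts in the main analysis, and Mrps18a passed with the trend on length removed, as given above. For folic acid averaged over genotype, Mrps34 passed by DESeq2 (0.39, adjusted p = 0.0368), where 20% of all genes did. On log2(TPM + 1) by limma, Mrpl44, Mrps30 and Mrps18a were lower there (adjusted p = 0.00925, 0.00932 and 0.0238), where 24.6% of all genes passed. By the same test in mutant cells, Mrpl44 and Mrps18a were lower (adjusted p = 0.0464 and 0.0391), where 18.5% passed.

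The lists of genes that make, load and assist the mitochondrial ribosome were described in the same fit. In the contrast that follows, 4.19% of all tested genes were higher and 2.74% lower at an adjusted p under 0.05. At fortified against moderate folic acid in mutant cells, 0 of 17 tested mitochondrial aminoacyl-tRNA synthetases passed, with a median of -0.15. Of 16 translation factors 2 were lower, and their median was -0.046. Gfm2, an elongation factor G that helps recycle the ribosome, was at 32.9, 35.0 and 34.9 CPM and then at 21.1, 21.6 and 22.0 CPM (-0.67 ± 0.14 SE, adjusted p = 0.0252). Lrpprc, which stabilises mitochondrial messenger RNA, went from 109, 119.9 and 136.7 to 57.1, 69.3 and 71.5 CPM (-0.89 ± 0.19 SE, adjusted p = 0.027). In both genes every fortified library was below every moderate one.

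In the same contrast 1 of 26 tested assembly factors was higher, and their median was -0.14. Of all tested genes 4.19% were higher and 2.74% lower. Malsu1, which keeps the large subunit from joining the small one too early, was at 7.41, 6.62 and 7.98 CPM and then at 15.96, 15.9 and 15.01 CPM (1.09 ± 0.22 SE, adjusted p = 0.0216). Of 16 genes of mitochondrial transcription and RNA processing 1 was lower, Polrmt, the mitochondrial RNA polymerase (-0.65 ± 0.17 SE, adjusted p = 0.046), with a list median of -0.18. Of 6 ribosomal proteins with other symbols 1 was higher, Chchd1 (1.18 ± 0.23 SE, adjusted p = 0.0216), a small subunit protein. Of 10 regulators of mitochondrial biogenesis 1 was lower, Myc (-1.46 ± 0.38 SE, adjusted p = 0.0432). Nrf1, which encodes the factor whose core site is given above, did not pass in this contrast (-0.39 ± 0.17 SE, adjusted p = 0.173). In the average of both genotypes it passed (-0.53 ± 0.12 SE, adjusted p = 0.0141). There 2 of the 10 regulators were lower, and 8.90% of all tested genes were higher and 8.86% lower.

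The cytosolic ribosome and the respiratory chain, whose proteins also form large complexes, were set beside the mitochondrial ribosome in mutant cells. Of 84 tested cytosolic ribosomal protein genes 24 were higher and 0 lower at fortified folic acid, with a median of 0.81. Of 77 tested respiratory chain and ATP synthase subunits 44 were higher and 0 lower, with a median of 0.81. The median of the mitochondrial ribosomal protein genes was 0.35 in the same fit. Of all tested genes 4.19% were higher and 2.74% lower, and those up to a relative length of 0.25 had a median of 0.70. The part of length in the list medians was not tested, and no test of the difference between these lists was made.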

How the data were processed

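The deposited files are a gene table of expected counts and one of TPM, both from salmon per the file names, on mm10 per the submitters' processing notes. The salmon version and annotation were not given in the sources used here. The libraries were made from polyadenylated RNA with a Tecan Universal Plus mRNA-Seq kit, per the labels' protocols. Column names carry unexplained letters (B and P), and columns were tied to diets by the column numbers in the descriptions.

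Expected counts were rounded. The filter was filterByExpr with a minimum count of 10 and a minimum total of 15, and 15186 of 24279 genes were tested. All 12 libraries entered 1 model with 4 group means in edgeR 4.0.16 (glmQLFit and glmQLFTest, TMM scaling, R 4.3.3). The 7 contrasts were genotype at each folic acid level and averaged, folic acid in each genotype and averaged, and their interaction. P-values were adjusted by Benjamini and Hochberg over all tested genes, with a threshold of 0.05. CPM are counts per 1000000 after TMM scaling, log2 CPM used a prior count of 2, and SE is that of the log2 fold change. No overlap means that the lowest library of one group exceeded the highest of the other. Libraries held 39339190 to 48475963 counts, and the common biological coefficient of variation over all tested genes was 0.332.

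Alternatives were DESeq2 1.42.0, limma 3.58.1 (voom with quality weights, and log2(TPM + 1) and log2(TPM + 0.1)), other scalings and filters, a replicate block, only the groups compared, a covariate for sex-linked transcripts, removal of each library's trend on length (natural spline, 5 degrees of freedom), and leaving out libraries. The main procedure was also run on simulated counts with known changes, drawn independently for each gene. Those counts held no trend on length and no mixture of cell types, so that run does not bear on either.

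Members and lists were chosen with earlier results of these data known. Named members were, in each contrast, up to 5 passing genes with the largest positive and 5 with the largest negative change, or the 5 with the smallest p where fewer than 3 passed. Added were the 3 highest and lowest by TPM in each subunit, the 3 most and least variable, and 9 chosen for their roles. In other lists, up to 3 genes with the smallest p were named. Exon overlaps used GENCODE on GRCm38, and promoters RefSeq on GRCm38.p6.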

Additional observations from a re-analysis of the deposited data

How the results depend on the processing

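The number of members passing at fortified against moderate folic acid in mutant cells, 11 in the main analysis, was 22 by DESeq2, 42 by limma-voom with quality weights, 7 without a low-count filter, 22 in a fit of only the groups compared and 0 with the trend on length removed. The share of all genes passing, 6.93% in the main analysis, was 12.1%, 34.7%, 4.02%, 14.4% and 0.607% in the same order. The members' count ran from 0 to 20 when single libraries were left out, and the share of all genes from 0 to 13.5%. DESeq2 gave 2 in mutant against wild type cells at moderate folic acid and 1 for folic acid in wild type cells, where the main analysis gave 0. For folic acid averaged over genotype, 12 members passed in the main analysis and 23 on log2(TPM + 1) or log2(TPM + 0.1), and 4 to 19 when single libraries were left out, where 9.15 to 26.2% of all genes passed.

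The median log2 fold change of the members in mutant cells reversed from 0.35 to -0.0044 on either TPM scale and to -0.046 with the trend on length removed. For folic acid averaged over genotype it reversed from 0.14 to -0.084 on log2(TPM + 1), -0.086 on log2(TPM + 0.1) and -0.080 with the trend on length removed. On log2(TPM + 1) the median of all genes was itself -0.23 and -0.15 in these contrasts. Small subunit medians in mutant cells went to -0.11 on both TPM scales and to -0.14 with the trend on length removed. Averaged over genotype they went to -0.17 on both TPM scales, -0.14 with the trend on length removed and -0.012 with library totals alone, and large subunit medians to -0.023 and -0.024 on the TPM scales and -0.027 with the trend on length removed. The interaction median of 0.42 became 0.19 on log2(TPM + 1), 0.20 on log2(TPM + 0.1) and 0.20 with the trend on length removed. The genotype median at moderate folic acid, -0.34, became -0.13 on log2(TPM + 1), -0.14 on log2(TPM + 0.1) and -0.13 with the covariate for sex-linked transcripts, and ran from -0.45 to -0.13 when single libraries were left out. Averaged over folic acid it went from -0.11 to 0.11 with that covariate. The cause was not tested.

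Same-numbered libraries of different groups did not deviate together more often than others. Of same-numbered pairs 4 of 18 had r over 0.1 (from -0.48 to 0.24), and of different-numbered pairs 9 of 36 (from -0.38 to 0.47). With 3 libraries in a group this cannot show whether the numbers pair them, and the labels do not say. With the replicate block 7 members passed in mutant cells and 9 in the average of folic acid, where 3.68% and 15.2% of all genes did.

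Of the values of single named genes under the alternatives, 6238 stayed on the same side of the threshold, 102 newly passed, 158 no longer passed and 0 changed sign after passing. These values cover all 7 contrasts, and members passed in the main analysis only for folic acid in mutant cells and averaged over genotype. Most of the 6238 therefore did not pass in either fit, and their number does not show that the calls were stable. The 158 are to be read against the few values that passed. Changes of sign between values that did not pass were not counted apart from the 6238. Leaving out 1 library leaves 2 in its group, and a result lost this way was not weighed further. Counting error is part of the spread between libraries and was not separated from it.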
